A study of Mus musculus with 6 samples.

Results

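The genes described are 10 glycoproteins of the extracellular matrix: fibronectin (Fn1), the thrombospondins Thbs1 and Thbs2, Sparc, tenascin C (Tnc), periostin (Postn), fibrillin 1 (Fbn1), elastin (Eln), fibulin 2 (Fbln2) and the microfibril protein Mfap5. They were chosen by name, each matched to 1 row of a table of 24940 genes, and 8 of the 10 had enough counts to be tested. RNA sequencing was done on wild-type hepatic stellate cells, isolated from female C57BL/6JBomTac mice and kept in culture for 2 days. For 3 libraries (forskolin A, B and C) the cells were given 5 µM forskolin for 3 h, a plant compound that activates adenylyl cyclase and so raises cAMP, and for 3 control libraries (DMSO A, B and C) its solvent DMSO. The labels do not say whether the replicates came from separate mice or isolations, so every p-value here reflects the spread among these 6 libraries alone, part or all of which may be technical.

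Stellate cells store vitamin A in the healthy liver and lay down scar matrix once activated, a change that culture on plastic also sets off. Fibronectin is deposited early in that process: cells pull it into fibrils through integrins, and other matrix proteins are built onto those fibrils. Thrombospondins, Sparc, tenascin C and periostin are matricellular proteins, which sit in the matrix mainly to modify growth factor signals and cell adhesion, while fibrillin 1, elastin, fibulin 2 and Mfap5 are parts of elastic fibres and microfibrils.

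Deposited counts per library summed to between 2770628 (forskolin C) and 10607997 (forskolin B), and both C libraries were the shallowest of their group. All 8 listed cAMP-induced genes (Nr4a1, Nr4a2, Nr4a3, Sik1, Crem, Pde4b, Pde4d and Per1) rose, with a median log2 fold change of 3.49. Of all tested genes 2.22% rose. That list was written with earlier results of these data known, so its count describes the response and is no independent check. All 14 stellate cell markers were detected, with a summed level of 1390 to 1517 CPM (counts scaled to TMM-adjusted library size) in DMSO and 1532 to 1683 CPM with forskolin; 2 of them, Hgf and Hand2, rose. Markers of portal fibroblasts, another matrix-producing cell of the liver, summed to at most 9.20 CPM in any library. The defining marker Thy1 had no count in any of the 6. Ly6a, the only 1 of the 9 listed to be tested, reached 7.08 CPM (forskolin A) and was at 0 in both C libraries. Mesothelial markers summed to at most 5.42 CPM. Upk3b, Krt7 and Gpm6a were at 0, while Krt19 reached 4.07 CPM (DMSO C) and Wt1 2.79 CPM (forskolin B). Summed markers stayed at or under 22.4 CPM for macrophages, 15.9 CPM for endothelium, 8.47 CPM for lymphocytes and 41.5 CPM for cholangiocytes, whose Spp1 is also a matricellular gene. Those of vascular smooth muscle, mostly Smtn, summed to 106 to 180 CPM.

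After 3 h of forskolin none of the 8 tested matrix glycoprotein genes passed the test in either direction (edgeR quasi-likelihood test, Benjamini-Hochberg adjusted over all 12233 genes tested), against 2.8% of all tested genes (2.22% higher, 0.572% lower). Unadjusted p-values lay under 0.05 for 2 of them, Fn1 and Thbs2, and for 12.1% of all tested genes. DESeq2 called 2 of the 8 (4.52% of all genes), the edgeR likelihood ratio test 2 (5.3% of all) and limma-voom 1 (3.94% of all). For those 2 genes every forskolin library lay above every DMSO library, which was so for 10.7% of all tested genes. The groups overlapped for the other 6; over all tested genes 20.2% did not overlap, 9.46% being lower with forskolin. The median log2 fold change of the 8 genes was 0.23, beside 0.005 over all tested genes, and 7 of the 8 estimates were above 0. In a fit without both C libraries, Fn1 and Thbs2 passed and the other 6 did not, while 9.76% of all genes were called, 5.86% as higher.

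**Figure D1:**
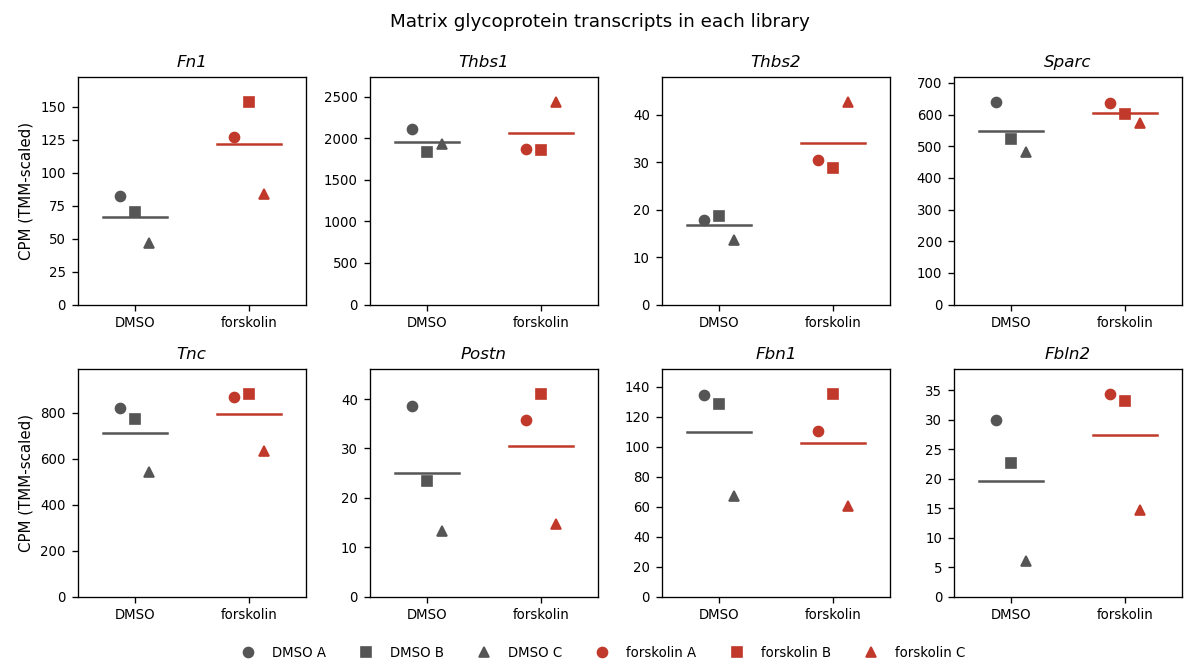
Level of each tested gene in CPM (y axis, linear from 0) in the 3 DMSO and 3 forskolin libraries, with circles, squares and triangles for replicates A, B and C and a line at the group mean. Only Fn1 and Thbs2 show no overlap between the groups, and the C libraries are the lowest of both groups for 6 of the 8 genes.

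Fibronectin was higher in each forskolin library than in any DMSO library, without passing the test. Fn1 (RefSeq NM_010233, chromosome 1, 71585473 to 71653234, minus strand, mm10) stood at 82.6, 70.4 and 46.8 CPM in DMSO A, B and C, and at 127, 154 and 84.0 CPM in forskolin A, B and C. The lowest forskolin value, in replicate C, lay just above the highest DMSO value, in replicate A, so the groups did not overlap but nearly touched. The group means were 66.6 ± 18.2 and 122 ± 35.4 CPM (SD, n = 3 each), a fold change of 1.82 with a 95% interval of 1.26 to 2.64. On the log2 scale this was 0.87 ± 0.24 (SE), with an edgeR adjusted p = 0.109. Leaving out forskolin C alone raised the estimate to 1.05 with edgeR adjusted p = 0.0135, and without both C libraries it was 0.88 ± 0.11 with adjusted p = 1.32e-05. Without any 1 of the other 5 libraries the adjusted p ran from 0.146 to 0.378.

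Hepatocytes secrete the plasma form of fibronectin, so their markers were read beside Fn1. The 8 hepatocyte markers summed to 20.3 to 27.3 CPM in DMSO and 53.9 to 64.7 CPM with forskolin, which do not overlap. Most of that was Trf, the iron carrier transferrin, whose group means were 16.7 ± 4.02 and 45.7 ± 9.52 CPM (SD, n = 3). Trf was called as higher (edgeR adjusted p = 0.00887), and the sum without it was taken after its values were seen. Without Trf the sum was 5.67 to 8.13 CPM in DMSO and 4.69 to 19.8 CPM with forskolin, and Alb, the defining hepatocyte transcript, was at 2.63 to 5.42 and 1.56 to 7.77 CPM. Those ranges overlapped between the groups only through forskolin A. Forskolin B and C lay above every DMSO library, at 11.6 and 19.8 CPM for the sum without Trf and 6.60 and 7.77 CPM for Alb. The part of hepatocyte RNA in the Fn1 difference was not tested. In bulk RNA, fewer cells of a type and less RNA per cell cannot be told apart. The counts are per gene, so the spliced forms that separate cellular from plasma fibronectin were not analysed here.

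The thrombospondins, large trimeric glycoproteins that bind cells, growth factors and proteases, differed widely from each other in level. Thbs1 (chromosome 2, 118111876 to 118127133, plus strand), whose product binds the receptor Cd47 and can activate latent TGF-beta, was among the most abundant transcripts, above 99.5% of tested genes per length of transcript. It stood at 2113, 1835 and 1929 CPM in DMSO A, B and C and at 1878, 1864 and 2443 CPM in forskolin A, B and C. Forskolin C was the highest value and the other 5 libraries were interleaved. The log2 fold change was 0.07 ± 0.18 (SE, edgeR adjusted p = 0.946), and the 95% interval of the fold ran from 0.80 to 1.38. Without both C libraries the estimate was −0.08.

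Thbs2 (chromosome 17, 14665500 to 14694262, minus strand), a close relative whose product is known for restraining angiogenesis and for clearing matrix metalloproteinase 2, was low. Its values were 17.8, 18.7 and 13.6 CPM in DMSO A, B and C against 30.4, 28.8 and 42.8 CPM in forskolin A, B and C. The lowest forskolin value, in replicate B, exceeded the highest DMSO value, also in replicate B. Means were 16.7 ± 2.76 and 34.0 ± 7.63 CPM (SD, n = 3), a fold change of 1.98 with a 95% interval of 1.37 to 2.87. The log2 fold change of 0.99 ± 0.24 was the largest of the 8 and had an edgeR adjusted p = 0.0671. Forskolin C, the highest library, held 109.5 counts of Thbs2 and DMSO C, the lowest, 39.5. Without both C libraries the log2 fold change fell to 0.69 ± 0.20 (edgeR adjusted p = 0.0356), and without any 1 library it lay between 0.81 and 1.10 with adjusted p from 0.103 to 0.212.

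**Figure D2:**
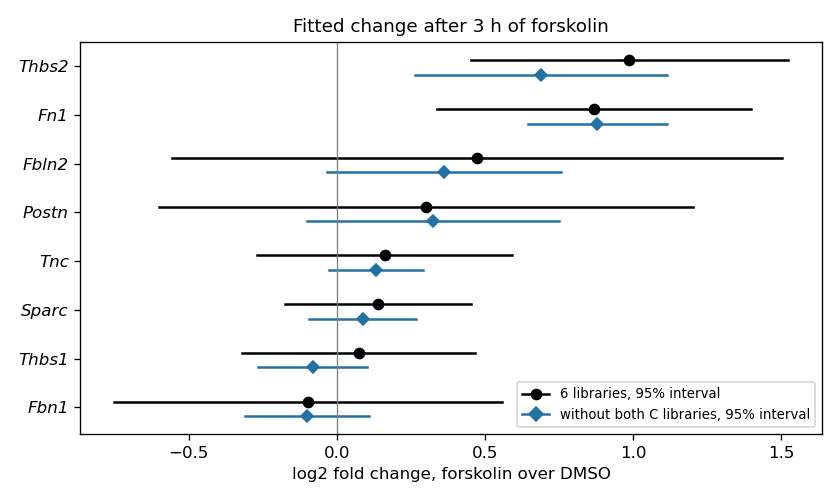
Fitted log2 fold change of forskolin over DMSO (x axis) for the 8 tested genes, with 95% intervals, from all 6 libraries (black circles) and without both C libraries (blue diamonds). The intervals of Thbs2 and Fn1 lie above 0 in both fits, and those of the other 6 genes include 0 in both.

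Sparc, a collagen- and calcium-binding protein that guides collagen fibril assembly, was high in all libraries. Its values were 641, 523 and 481 CPM in DMSO A, B and C and 637, 602 and 572 CPM in forskolin A, B and C. The forskolin values fell inside the DMSO range, and the log2 fold change was 0.14 ± 0.14 (SE, edgeR adjusted p = 0.829). The 95% interval of the fold ran from 0.88 to 1.37.

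Tenascin C, a multi-armed glycoprotein made in wounds and fibrotic tissue, had 819, 775 and 541 CPM in DMSO A, B and C and 870, 883 and 634 CPM in forskolin A, B and C. The A and B libraries of both groups lay together and both C libraries lay below them. The log2 fold change was 0.16 ± 0.19 (edgeR adjusted p = 0.863). Periostin, a fasciclin-domain protein that helps crosslink collagen, had 38.5, 23.4 and 13.2 CPM in DMSO and 35.8, 41.1 and 14.8 CPM with forskolin, in the same order of replicates. Replicates of each group differed by more than the group means did, and the log2 fold change was 0.30 ± 0.41 (edgeR adjusted p = 0.88), running from 0.04 without forskolin B to 0.74 without DMSO A.

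RefSeq promoter windows (build GRCm38.p6) that begin at the deposited transcript's start were matched for 6 of the 10 genes: Thbs2, Sparc, Tnc, Postn, Fbn1 and Fbln2. Fn1, Thbs1, Eln and Mfap5 had no matched window, so their promoters were not read. The 250 bases before the start are shown for Thbs2, which did not overlap between the groups, and for Tnc and Postn, which did; capitals mark the letters TATAAA on either strand.
Thbs2, chr17:14694263-14694512, minus strand: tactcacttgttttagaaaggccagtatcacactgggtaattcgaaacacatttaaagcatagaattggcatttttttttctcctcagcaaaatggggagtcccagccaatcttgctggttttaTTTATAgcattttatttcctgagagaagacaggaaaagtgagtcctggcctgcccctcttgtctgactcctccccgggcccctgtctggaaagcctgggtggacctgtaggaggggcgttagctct
Tnc, chr4:64047016-64047265, minus strand: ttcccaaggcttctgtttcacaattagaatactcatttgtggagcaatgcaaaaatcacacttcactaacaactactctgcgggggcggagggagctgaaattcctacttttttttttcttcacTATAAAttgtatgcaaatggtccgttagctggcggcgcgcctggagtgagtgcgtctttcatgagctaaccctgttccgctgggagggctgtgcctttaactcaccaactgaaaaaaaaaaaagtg
Postn, chr3:54360857-54361106, plus strand: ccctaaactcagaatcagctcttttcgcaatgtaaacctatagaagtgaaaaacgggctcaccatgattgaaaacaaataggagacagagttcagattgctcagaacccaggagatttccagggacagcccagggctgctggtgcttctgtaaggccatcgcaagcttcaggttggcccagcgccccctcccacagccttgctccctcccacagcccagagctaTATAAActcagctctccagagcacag
The cAMP response element TGACGTCA was in none of the 6 windows and in 1.55% of all 32851 promoter windows of that length, both strands read. At that share any 6 windows would usually hold none. Its shorter core TGACG was also in none of the 6, against 17.8% of all windows; every TGACGTCA holds a TGACG. The TEAD letters CATTCC (12.6% of all) and the AP-1 letters TGANTCA (6.75% of all) were likewise in none of the 6. TATAAA was in 3 of the 6, against 12.4% of all: its match began 126 bases upstream of the start in Thbs2, on the opposite strand, 126 bases upstream in Tnc and 26 bases upstream in Postn. These are matches of letters in a short window, not binding sites.

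The elastic fibre genes were split between measurable and nearly silent ones. Fbn1, whose product builds the microfibrils that hold latent TGF-beta, had 134, 129 and 67.1 CPM in DMSO A, B and C and 111, 135 and 60.6 CPM in forskolin A, B and C. The groups overlapped almost fully, with a log2 fold change of −0.10 ± 0.29 (SE, edgeR adjusted p = 0.961) that turned positive without forskolin C, DMSO A or DMSO B (0.14, 0.06 and 0.03). Fbln2, a protein that bridges fibrillin, elastin and fibronectin, had 29.9, 22.7 and 6.10 CPM in DMSO and 34.4, 33.1 and 14.8 CPM with forskolin. Forskolin A and B lay above every DMSO library, and forskolin C lay above DMSO C but below DMSO A and B. The log2 fold change of 0.47 ± 0.46 did not pass (edgeR adjusted p = 0.816).

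Eln, the elastic core of the fibre, had 1, 0 and 6 counts in DMSO A, B and C and 9, 0 and 0 in forskolin A, B and C. Mfap5, a microfibril glycoprotein, had 3 counts in forskolin C and none in the other 5 libraries. Neither gene was tested. A floor of 3 counts equals between 0.279 CPM (forskolin B) and 1.17 CPM (forskolin C), so levels under these limits were not detectable; such floors cover counting error only. Eln, Fbln2 and Mfap5 are also typical of portal fibroblasts, whose markers summed to at most 9.20 CPM here.

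Per length of transcript the 10 genes formed 3 tiers. In DMSO, Thbs1 had 336 ± 24.2, Sparc 209 ± 31.6 and Tnc 101 ± 21.1 CPM per kb (SD, n = 3). These 3 did not overlap each other in any library of the group, nor any gene below them. Next came Fbn1 at 11.2 ± 3.80, Fn1 at 7.95 ± 2.17, Postn at 7.85 ± 3.99, Fbln2 at 4.39 ± 2.74 and Thbs2 at 2.83 ± 0.468 CPM per kb. Each of these overlapped its neighbour in the order, so adjacent places are not resolved by the replicates. Thbs2, at most 3.18 CPM per kb, lay below every value of Fbn1, Fn1 and Postn, and the lowest Fbn1 value (6.82) lay above the highest of Fbln2 (6.71). Eln and Mfap5 were under 1 CPM per kb in every library. With forskolin the upper tier kept its order at 354 ± 56.7, 230 ± 12.3 and 112 ± 19.9 CPM per kb. Fn1 (14.5 ± 4.22) then stood ahead of Fbn1 (10.4 ± 3.87), with overlap between them.

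**Figure D3:**
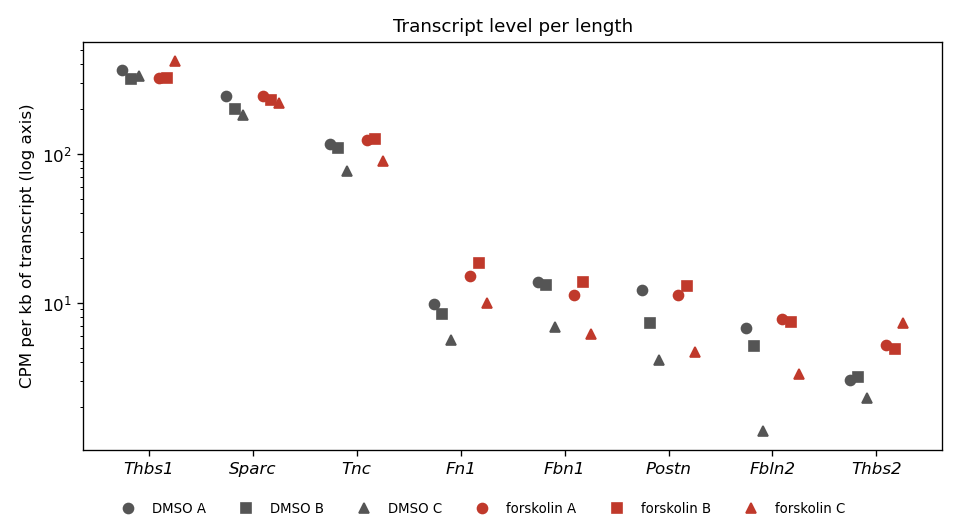
Level per length of the 8 tested genes, in CPM per kb of the deposited transcript length (y axis, log scale), by library; colours give the group and shapes the replicate. Thbs1, Sparc and Tnc stand apart above 76 CPM per kb, and the other 5 genes share the range below 19.

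Both C libraries were low in most of these genes. Replicate C was the lowest of its group in DMSO and in forskolin alike for 6 of the 8 genes, while this held for 25.6% of all tested genes. Relative to the mean of A and B, Fbln2 in replicate C was at 23.2% in DMSO and 43.8% with forskolin, and Postn at 42.7% and 38.4%. Fbn1 was at 51.0% and 49.3%, Fn1 at 61.1% and 59.8%, Tnc at 67.9% and 72.3%, and Sparc, the mildest of the 6, at 82.6% and 92.4%. Thbs1 was at 97.8% in DMSO and 131% with forskolin. Thbs2 was also lowest in replicate C in DMSO, at 74.2%, but highest there with forskolin, at 144%. Of 16 other elastic fibre genes tested, 8 were likewise lowest in both C libraries, and of 16 receptors of matrix glycoproteins 7 were. So were 6 of 18 other matrix glycoproteins, 2 of 6 other matricellular genes, 4 of 14 stellate cell markers and 1 of 8 cAMP-induced genes. The C libraries are also the shallowest; the part of depth in these ratios was not tested. Over the 430 genes of the longest transcripts, a class that holds Fn1 and Fbn1, the median log2 ratio of C over A and B was −0.09.

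**Figure D4:**
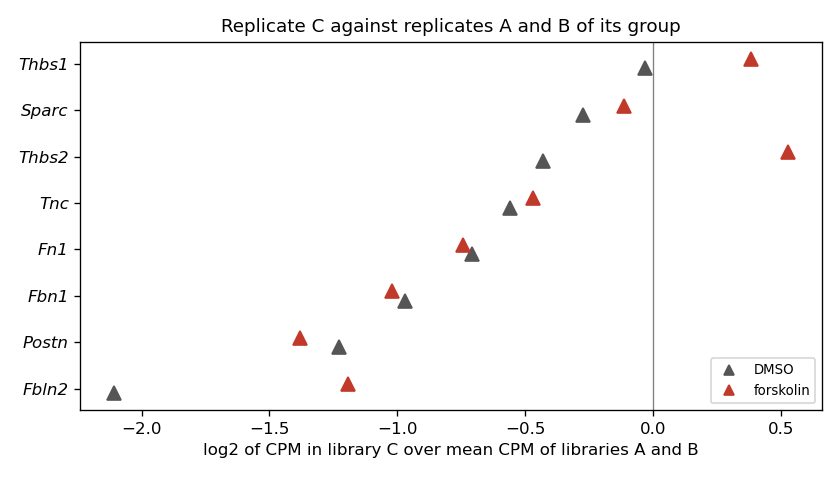
Log2 ratio of the level in replicate C to the mean of replicates A and B of the same group (x axis), for DMSO (grey) and forskolin (red). The 2 groups gave similar ratios for Fn1, Fbn1, Postn and Tnc, from −1.38 to −0.47, whereas Thbs1 and Thbs2 were above 0 with forskolin and below 0 in DMSO.

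Other genes of the same families gave no call either. Among 14 further thrombospondins and matricellular genes, 6 were tested and none passed, although all 6 estimates were above 0 with a median log2 fold change of 0.78; 2 had an unadjusted p under 0.05 (12.1% of all tested genes), and DESeq2 called 2 (4.52% of all). The most abundant were Fstl1, a secreted Sparc relative, at 449 ± 111 and 536 ± 19.4 CPM in DMSO and forskolin (SD, n = 3), and Tgfbi, a periostin relative, at 79.1 ± 10.1 and 95.7 ± 11.7 CPM. Smoc2, also of the Sparc family and named after its values were seen, was at 9.95 ± 1.22 and 22.4 ± 6.84 CPM without overlap (edgeR adjusted p = 0.0683). Thbs3 and Thbs4, the remaining thrombospondins with Comp, had too few counts to be tested, as did Comp.

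Of 21 other elastic fibre and microfibril genes, 16 were tested and none passed; 1 had an unadjusted p under 0.05, DESeq2 called 0, and the median log2 fold change was 0.13. Emilin1, an elastin-associated glycoprotein, had means of 104 ± 26.2 and 115 ± 44.5 CPM in the DMSO and forskolin groups (SD, n = 3), and Mfap3 at 84.6 ± 6.14 and 79.8 ± 6.01 CPM. Of 29 other matrix glycoproteins, 18 were tested and none passed, with 0 at an unadjusted p under 0.05, 0 calls by DESeq2, and a median of −0.01. Nid1, the basement membrane linker nidogen, was at 2115 ± 366 and 1994 ± 321 CPM, and Crim1, a membrane protein that binds growth factors, at 414 ± 100.4 and 391 ± 78.6 CPM.

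Receptors for these glycoproteins gave 0 calls among 16 tested of 18 (4 with an unadjusted p under 0.05 and 2 called by DESeq2, against 12.1% and 4.52% of all tested genes), with a median log2 fold change of 0.03. Itgb1, the integrin chain shared by the main fibronectin receptors, had means of 1210.5 ± 232 and 1181 ± 317 CPM in the DMSO and forskolin groups (SD, n = 3). Itgav, a chain of RGD-binding integrins, was at 537 ± 22.0 and 657 ± 8.81 CPM without overlap, a log2 fold change of 0.29 ± 0.12 (edgeR adjusted p = 0.342). The receptor with the lowest p was Itga9, which binds tenascin C and is named after its values were seen, at 160 ± 34.4 and 283 ± 64.9 CPM (edgeR adjusted p = 0.0591). Without both C libraries 4 of 17 receptors were called higher and 0 lower, against 5.86% of all genes called higher in that fit.

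Over the 6 libraries, the genes whose profiles were most like that of Thbs1 were Iqcg, Nom1 and Srsf1, with Pearson correlations of log2 CPM of 0.995, 0.985 and 0.983. For Tnc they were Inpp5a, Tspo and Fhl1, at 0.997, 0.995 and 0.995. These 6 points share library and depth, and the best of 12233 genes is high by selection, so the values only describe these libraries.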

How the data were processed

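Expected counts per gene over exons, in steps of 0.5, were deposited by the authors as 1 table without adjustment; 24.2% of values are not whole. Per the submitters' processing notes, STAR, HOMER and the mm10 build were used; versions, annotation release, duplicate handling and the counting rule were not given in the sources used. Duplicate handling matters most for densely covered genes (up to 3.44 counts per base for Thbs1). The NEBNext Ultra kit named in the labels' protocols does not mark strand. GENCODE M21 places exons of unlisted or nearly uncounted antisense genes over 208 bases of Thbs1 exons, 292 of Fn1 and 176 of Tnc, and a gene on the other strand over 2442 bases of Fbn1; reads of such pairs cannot be told apart.

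Values ending in 0.5 were rounded to whole counts, ties going to the even number, and tested over all genes with edgeR 4.0.16 (R 4.3.3): filterByExpr, TMM scaling, quasi-likelihood F test, Benjamini-Hochberg adjustment, threshold 0.05. The common biological coefficient of variation was 0.213. Standard errors are approximate (log2 fold change over the root of F), and 95% intervals use the test's degrees of freedom. CPM uses TMM-scaled library sizes and CPM per kb the deposited transcript length. Alternatives used DESeq2 1.42.0 and limma 3.58.1. The test was checked on simulated counts. The genes and lists were chosen with earlier results of these data known. Text names all 10 genes and, of each other list, its called genes or, with none called, the 2 most abundant. Cell type markers were not named by that rule, and a few other genes are marked in the text as picked with values in view. Lists were: other thrombospondins and matricellular genes, other elastic fibre genes, other matrix glycoproteins, their receptors, cAMP-induced genes, and markers of stellate cells and 8 other cell types.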

Additional observations from a re-analysis of the deposited data

How the results depend on the processing

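Counts of called genes depended on the test and on the C libraries, while the signs of Fn1, Thbs2, Sparc, Postn and Fbln2 held under all 19 alternatives. Log2 fold changes moved with single libraries: Postn ran from 0.04 (without forskolin B; also 0.04 without DMSO C) to 0.74 (without DMSO A), Fbln2 from 0.11 (without DMSO C) to 0.87 (without DMSO A), and Sparc from 0.05 (without DMSO C) to 0.27 (without DMSO A), none of them called under any alternative. Of the matrix glycoproteins, 0 were called with RLE, upper quartile or library-size scaling, at a filter of 1 CPM in 3 libraries and with counts ending in 0.5 rounded up. With cyclic loess scaling (limma-voom), 1 of them was called, beside 2 other matricellular genes, 1 other elastic fibre gene, 2 receptors and 526 of all genes. Without a filter the counts were 2, 3, 0, 1 and 620 in that order, with DESeq2 2, 2, 0, 2 and 553, and with limma-voom 1, 2, 1, 2 and 482. Sample quality weights gave 2, 3, 1, 3 and 984, the likelihood ratio test 2, 2, 1, 1 and 648, and the fit without both C libraries 2, 3, 2, 4 and 1229. Without a filter these counts were out of 10 matrix glycoproteins and 18738 genes in all. Without both C libraries they were out of 8 and 12597, and with the other tests named here out of 8 and 12233. Without 1 library at a time the ranges were 0 to 1, 0 to 2, 0 to 0, 0 to 1 and 185 to 485. Fn1 was called under 9 of the 19 alternatives (log2 fold change 0.66 to 1.05) and Thbs2 under 5 (0.69 to 1.10). Signs turned for Thbs1 with quality weights (-0.016), without both C libraries (-0.082) and without forskolin C (-0.063); its range without 1 library was -0.063 to 0.14. They also turned for Tnc without DMSO C (-0.0023; range to 0.30) and for Fbn1, whose range without 1 library was -0.35 to 0.14. The cause was not tested. With the replicate letter as a block, Fn1 passed (adjusted p = 0.00274, edgeR) and Thbs2 did not (0.0572); 1 of the matrix glycoproteins, 2 other matricellular genes, 0 other elastic fibre genes, 2 receptors and 649 of all genes were called. The letters are not shown to pair the samples: deviations of same-letter libraries correlated at 0.05, 0.13 and 0.15 for A, B and C. Those of different letters ran from -0.15 (forskolin B with DMSO C) to 0.10 (forskolin A with DMSO B). Every pair of a C library with an A or B library was below 0. Deviations from a group mean sum to 0 over its libraries, so these values follow in part from the positive value of C with C. Without the length correction, 6 genes changed place in the order of levels.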
